A study of Mus musculus with 12 samples.

Results

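The 9 genes described here encode hormones and other secreted peptides of the pancreatic islet: Ins2, Iapp, Gcg, Ttr, Sst, Ppy, Pyy, Ghrl and Ucn3. They were picked by gene symbol in the platform annotation, out of 19938 genes, and each had 1 probe set with a single symbol. The RNA was that of MIN6, a beta cell line grown from a mouse insulinoma, so every group is the same tumour line and holds no intact islet. The 12 Affymetrix arrays fall into 4 groups. In Classic Conditions (CC), with serum and 20% oxygen, 2 arrays carried RNA of cells given scrambled siRNA and 2 of cells given Hes3 siRNA. In Defined Conditions (DC), without serum and at 5% oxygen, there were 4 arrays for each siRNA. All cultures had been kept in serum beforehand, were seeded at 50000 cells in each well, and received siRNA at 2 µM some 12 to 24 hours ahead of the assay. Serum and oxygen changed together between CC and DC, so their parts in a difference cannot be told apart.

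In the islet each hormone has its main cell type: insulin and amylin come from beta cells, glucagon from alpha cells, somatostatin from delta cells, pancreatic polypeptide from PP cells and ghrelin from epsilon cells. Insulin lowers blood glucose and glucagon raises it, while somatostatin restrains the release of both from neighbouring cells. These hormones are made as longer precursors that are cut in secretory granules, and lines derived from beta cell tumours are known to carry transcripts of other islet hormones beside insulin.

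The DNA just before the start site is given for 4 of the genes, Iapp, Gcg, Sst and Ppy, a hormone each of the beta, alpha, delta and PP cell. Whether motifs go with the signal of a gene was not tested for these windows. They are the 250 bases before the start site from RefSeq (GRCm38.p6), written 5′ to 3′ on the strand of the gene. They lie at chr6:142298175-142298424 (plus strand) for Iapp, chr2:62483654-62483903 (minus) for Gcg, chr16:23890845-23891094 (minus) for Sst and chr11:102101320-102101569 (minus) for Ppy. Capitals mark TATAAA (the TATA box), TAAT (the core bound by homeodomain factors such as Pdx1) and TGACGTCA (the cyclic AMP response element, first worked out on the somatostatin gene), on either strand.
Iapp: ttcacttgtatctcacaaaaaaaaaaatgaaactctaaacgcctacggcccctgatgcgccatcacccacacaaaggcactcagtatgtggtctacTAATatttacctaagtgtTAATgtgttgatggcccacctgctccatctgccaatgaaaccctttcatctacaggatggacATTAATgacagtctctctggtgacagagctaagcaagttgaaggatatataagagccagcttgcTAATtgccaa
Gcg: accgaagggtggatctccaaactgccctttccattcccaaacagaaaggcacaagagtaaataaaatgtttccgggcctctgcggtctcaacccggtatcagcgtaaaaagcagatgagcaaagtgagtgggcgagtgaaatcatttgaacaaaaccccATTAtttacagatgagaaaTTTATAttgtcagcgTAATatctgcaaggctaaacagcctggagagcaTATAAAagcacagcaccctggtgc
Sst: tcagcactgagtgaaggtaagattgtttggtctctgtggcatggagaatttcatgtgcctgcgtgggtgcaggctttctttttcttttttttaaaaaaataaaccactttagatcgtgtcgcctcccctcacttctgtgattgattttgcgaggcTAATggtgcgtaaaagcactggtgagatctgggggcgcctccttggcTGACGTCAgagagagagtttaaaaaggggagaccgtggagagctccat
Ppy: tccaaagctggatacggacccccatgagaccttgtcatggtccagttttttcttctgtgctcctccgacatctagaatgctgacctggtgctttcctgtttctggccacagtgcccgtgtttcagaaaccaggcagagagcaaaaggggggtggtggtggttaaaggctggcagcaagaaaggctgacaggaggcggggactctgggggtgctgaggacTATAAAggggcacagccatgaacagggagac

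The Sst window held TGACGTCA once, with its first base at position -48, where -1 is the base before the start site. Of 32851 promoter windows of this length, 1.55% held that motif on either strand. TATAAA lay at -24 in Gcg and at -31 in Ppy, with a further match on the opposite strand at -72 in Gcg, and was found in 12.4% of all windows. TAAT had 5 matches in Iapp, including a pair that overlap on opposite strands, against 2 in Gcg, 1 in Sst and 0 in Ppy, and 54.9% of windows held it. Windows were on hand for 7 of the 9 genes. The N-box CACNAG, a motif bound by Hes repressors, was present in 5 of the 11 windows of these 7 genes, or 45.5% (36.7% of all windows), and the E-box CANNTG in 8 of 11, or 72.7% (66.2%). Pyy has 2 of these windows and Ghrl 4, so the windows are not independent. These matches describe letters in a window and not bound sites.

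The values are the log2 signals that the authors deposited, 1 for each probe set and array, and they ran from 3.94 to 14.4. Beta cell markers were bright: the mean over the 12 arrays was 13.1 for G6pc2, 11.6 for Pdx1, 10.6 for Mafa and 10.5 for Nkx6-1, all above the 93rd percentile of genes. The glucose transporter gene Slc2a2 (7.65) and Ucn3 (7.34) were dim, at percentiles 39.4 and 32.4. The Hes3 probe set gave no drop under its siRNA label, with means of 7.22 ± 0.0052 against 7.02 ± 0.29 in CC (SD, n = 2) and 7.34 ± 0.061 against 7.19 ± 0.064 in DC (SD, n = 4), so those arrays are called by their label throughout. DC arrays 1 and 5 labelled Hes3 siRNA stood apart on the first principal component (34.8 and 29.2, with the other 10 arrays from -32.7 to 15.6). At the low end CC scrambled array 2 lay at -32.7, with the next array at -19.3, and it was left out only as a single array. Differences that involve DC arrays 1 and 5 labelled Hes3 siRNA are given with and without this pair for each called gene of the 9. For each gene list described, this is done as counts called. The number of arrays limits the precision, and since the labels speak of samples from a single experiment, p-values measure only the spread between these samples, which may be technical.

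Glucagon and transthyretin transcripts fell in DC, by 1.9-fold and 1.75-fold with scrambled siRNA and by 2.07-fold and 1.61-fold with Hes3 siRNA, while the Ins2 signal differed by 0.03 and -0.03 on the log2 scale. Of the 9 genes, 2 were called in DC against CC with scrambled siRNA, both lower (limma, Benjamini-Hochberg adjusted p under 0.05 over all genes), where 8.54% of all genes were called, 5.45% lower and 3.09% higher. With Hes3 siRNA 5 were called, 2 lower and 3 higher, where 40.1% of all genes were called, 18.8% lower and 21.2% higher. Between the siRNA labels in DC, 3 were called higher (Ppy, Ghrl and Ucn3) and 1 lower (Iapp), where 28.9% and 18.3% of all genes were and 47.2% were called either way. In CC limma called 0 of 9 between the labels, 0 had an unadjusted p under 0.05, and 0% of all genes were called; the groups did not overlap for 3 of the 9 genes (Iapp, Ttr and Pyy), beside 26.9% of all genes. In DC against CC with Hes3 siRNA they did not overlap for 7 of 9, all but Ins2 and Sst, beside 61.8% of all genes. The difference between the siRNA contrasts of DC and CC was called for 0 of 9 genes (0% of all genes; 1 of the 9, Ppy, had an unadjusted p under 0.05). The median log2 fold change of the 9 was -0.04 in DC against CC with scrambled siRNA and -0.03 with Hes3 siRNA, beside 0.02 and 0.09 for all genes. It was 0.04 between the labels in CC and 0.09 in DC, beside 0.02 and 0.06. RNA was measured in bulk, so fewer cells that carry a hormone and less of its RNA in each cell cannot be told apart.

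**Figure D1:**
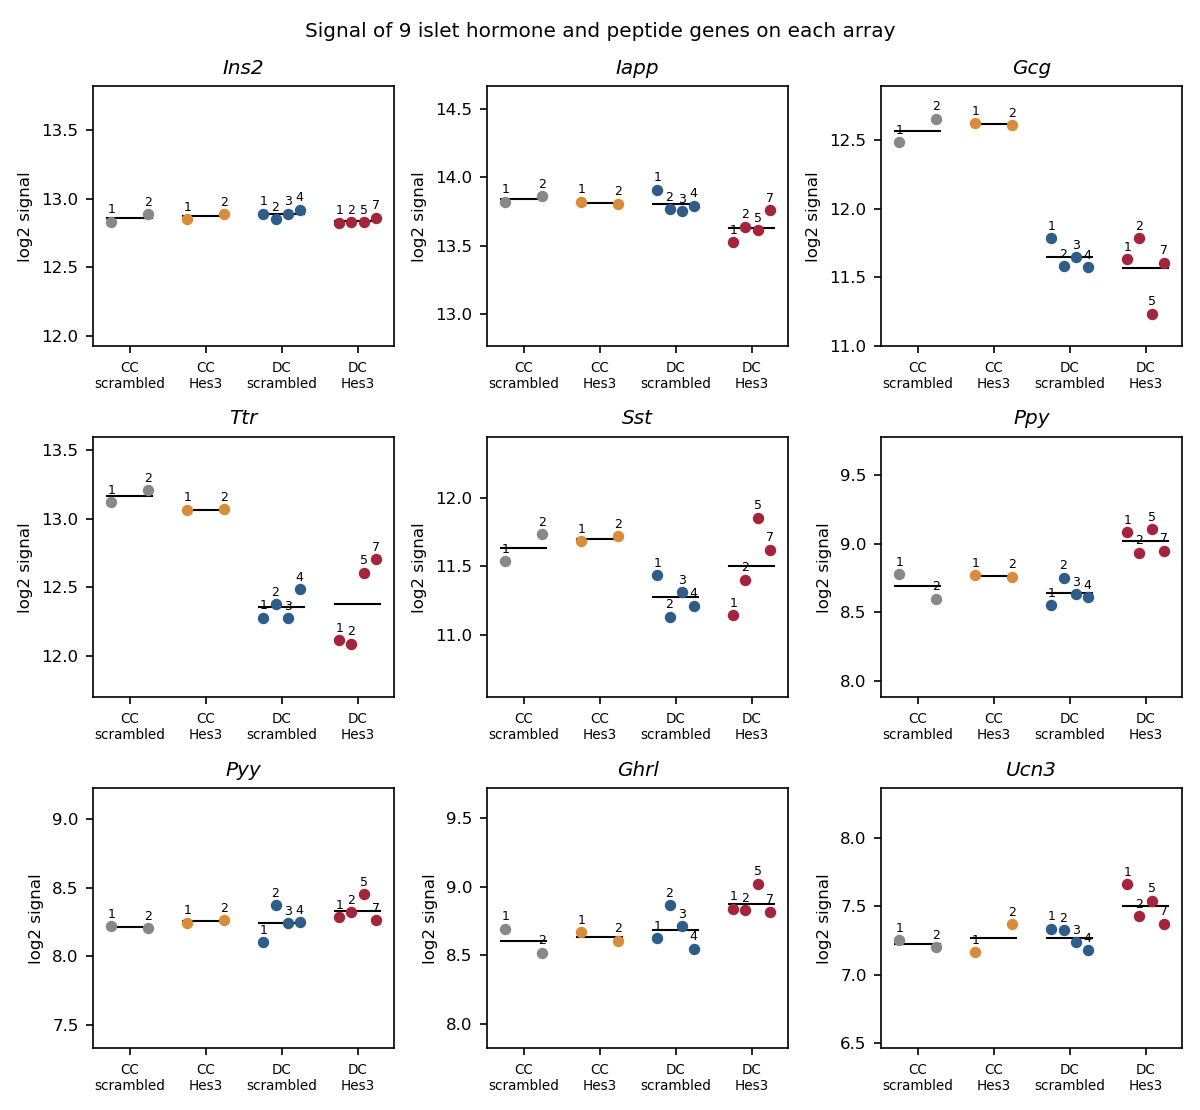
Log2 signal of each of the 9 genes on the 12 arrays, by group; points are arrays with their replicate numbers, bars are group means, and every panel spans the same number of log2 units. Gcg and Ttr lie lower on all 8 DC arrays than on the 4 CC arrays, Ppy lies higher on the 4 DC arrays labelled Hes3 siRNA than on the 4 DC scrambled arrays, and Ins2 spans 0.097 over all 12 arrays.

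**Figure D2:**
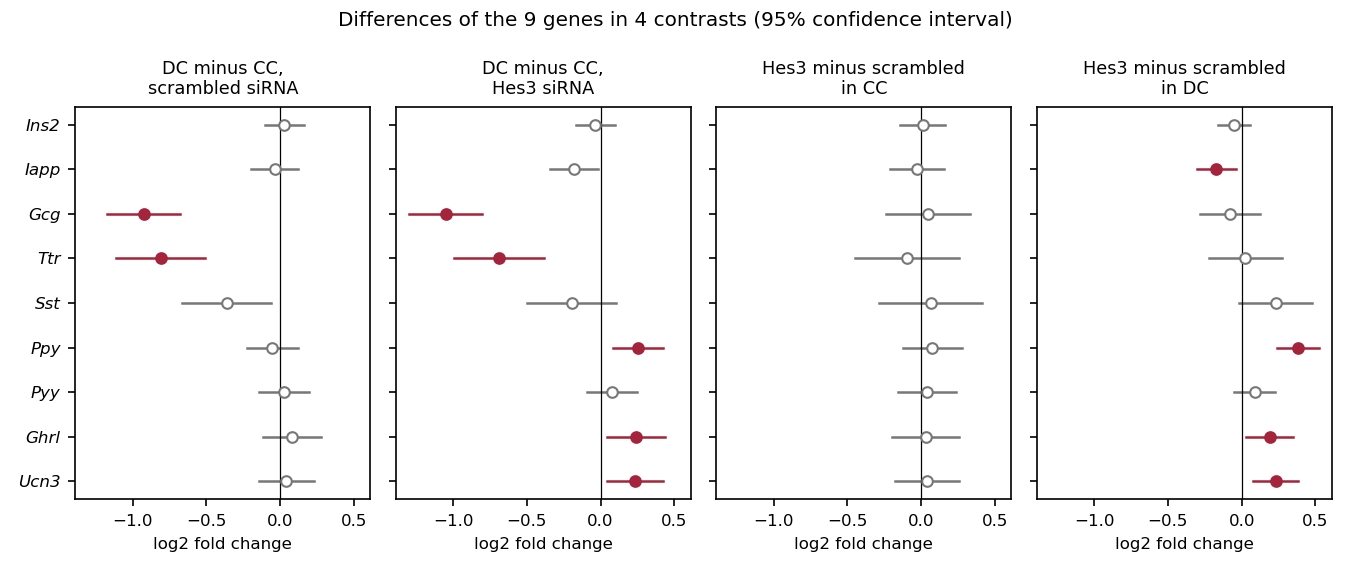
Log2 fold change of the 9 genes in 4 contrasts of the limma fit, with 95% confidence intervals; filled red points are called at an adjusted p under 0.05, open grey points are not. Gcg and Ttr are called lower in DC with either siRNA, and no gene is called between the labels in CC.

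Glucagon is the alpha cell hormone that raises blood glucose, and its gene Gcg also encodes the incretin GLP-1. The Gcg log2 signal was 12.48 and 12.66 on CC scrambled arrays 1 and 2, and 12.62 and 12.61 on CC arrays 1 and 2 labelled Hes3 siRNA. In DC it was 11.78, 11.58, 11.64 and 11.57 on scrambled arrays 1 to 4, and 11.63, 11.78, 11.23 and 11.61 on arrays 1, 2, 5 and 7 labelled Hes3 siRNA. Every DC array lay below every CC array, and array 5 was the lowest of all. With scrambled siRNA the mean was 11.65 ± 0.098 (SD, n = 4) in DC and 12.57 ± 0.12 (SD, n = 2) in CC, which gives a log2 difference of -0.93 ± 0.116 (SE; limma adjusted p = 0.000112). With Hes3 siRNA it averaged 11.56 ± 0.23 (SD, n = 4) in DC and 12.62 ± 0.011 (SD, n = 2) in CC, a log2 fold change of -1.05 ± 0.116 (SE; limma adjusted p = 1.5e-05). Counted from the lowest fold change with scrambled siRNA, Gcg ranked at 57 and Ttr at 92 of 19938 genes. With Hes3 siRNA Gcg ranked at 128 and Ttr at 629. Without arrays 1 and 5 the value for Hes3 siRNA was -0.92 (limma adjusted p = 4.37e-05). Between the siRNA labels no Gcg difference passed the threshold: the log2 fold change was 0.05 in CC (95% confidence interval -0.24 to 0.33) and -0.08 in DC (-0.28 to 0.12), and the DC value turned to 0.03 without array 5.

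Transthyretin, a carrier of thyroid hormone and retinol-binding protein, is secreted by islet cells and is a marker of alpha cells. Its log2 signal was 13.12 and 13.21 on the CC scrambled arrays, 13.06 and 13.07 on the CC arrays labelled Hes3 siRNA, and 12.28, 12.38, 12.28 and 12.48 on DC scrambled arrays 1 to 4. The DC arrays labelled Hes3 siRNA gave 12.11 and 12.09 on arrays 1 and 2 but 12.61 and 12.70 on arrays 5 and 7. These arrays thus lay on either side of the DC scrambled arrays, with no overlap, and all 8 DC arrays lay below the CC arrays. The mean fell from 13.16 ± 0.061 (SD, n = 2) to 12.35 ± 0.099 (SD, n = 4) with scrambled siRNA, a log2 fold change of -0.81 ± 0.143 (SE; limma adjusted p = 0.00172). With Hes3 siRNA it fell from 13.07 ± 0.0024 (SD, n = 2) to 12.38 ± 0.32 (SD, n = 4), a log2 fold change of -0.69 ± 0.143 (SE; limma adjusted p = 0.00236), or -0.67 without arrays 1 and 5 (limma adjusted p = 0.00664). The siRNA labels did not differ past the threshold in DC, where the log2 fold change was 0.02 with an interval from -0.22 to 0.27, nor in CC (-0.10, from -0.45 to 0.25). The sign in DC turned without any 1 of 4 arrays, with values down to -0.09.

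Gcg and Ttr correlated at r = 0.79 over the 12 arrays, arrays that share the step between CC and DC. Within DC array 5 labelled Hes3 siRNA was the lowest of all for Gcg and among the highest DC arrays for Ttr. Of the other alpha cell markers, Irx1 and Irx2 were measured and had means of 7.89 and 8.33, near the middle of the signal range. Between the labels in DC both were called higher, as 28.9% of all genes were, Irx1 by 0.37 and Irx2 by 0.27, while Gcg and Ttr were not. Without arrays 1 and 5 limma called 0 of the 4, with Irx1 at 0.28 (limma adjusted p = 0.117) and Irx2 at 0.22 (limma adjusted p = 0.0892). In DC against CC with Hes3 siRNA 2 of the 4 were called lower, Gcg and Ttr, beside 18.8% of all genes. In the same contrast 2 were called higher, Irx1 (0.30, limma adjusted p = 0.0436) and Irx2 (0.28, limma adjusted p = 0.0152), beside 21.2% of all genes. There Irx1 lost its call under quantile normalization (0.21), cyclic loess normalization (0.16) and centring (0.19), Irx2 lost it with arrays centred (0.17), and both lost it without arrays 1 and 5 (0.21 and 0.23). Neither was called in DC against CC with scrambled siRNA (Irx1 -0.02, Irx2 0.01). The 2 of the 4 measured alpha cell markers called lower there were Gcg and Ttr themselves, and 0 were called higher. Of all genes 5.45% were called lower and 3.09% higher. The list median of -0.42, beside 0.02 for all genes, includes Gcg and Ttr and is no separate evidence on them. The mean log2 signal of the 4, with Gcg and Ttr among them, ran from 10.42 to 10.45 on the CC scrambled arrays. On the DC scrambled arrays it ran from 9.92 to 10.05.

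Somatostatin, the delta cell peptide, lay in between. Its log2 signal was 11.54 and 11.73 on the CC scrambled arrays, 11.68 and 11.72 on the CC arrays labelled Hes3 siRNA, and 11.44, 11.13, 11.31 and 11.21 on DC scrambled arrays 1 to 4. On DC arrays 1, 2, 5 and 7 labelled Hes3 siRNA it was 11.14, 11.40, 11.85 and 11.62, so this group ran from close to the lowest array of all (11.13) to array 5, the highest of the 12. With scrambled siRNA the DC arrays lay below the CC arrays without overlap, as 27.9% of all genes had groups that did not overlap, a log2 difference of -0.36 ± 0.143 (SE) that missed the threshold (limma adjusted p = 0.152). It passed when only these 6 arrays were fitted (limma adjusted p = 0.0333) and when arrays 1 and 5 labelled Hes3 siRNA were left out of the shared spread (0.0212), at the same fold change. With Hes3 siRNA the difference was -0.20 ± 0.143 (SE; limma adjusted p = 0.26), or -0.19 without arrays 1 and 5 (0.221), and it came to 0.0047 under quantile normalization. Between the labels in DC it was 0.23 ± 0.117 (SE; limma adjusted p = 0.108). This difference rose past the threshold to 0.37 under quantile normalization (limma adjusted p = 0.0191), 0.38 under cyclic loess normalization (0.0284), 0.27 with array weights (0.0256) and 0.35 without array 1 (0.0208). It was 0.24 without arrays 1 and 5 together (limma adjusted p = 0.121). The other 3 delta cell markers were called higher in the same contrast: Hhex (0.22), Ghsr (0.25) and Rbp4 (0.17). So were 28.9% of all genes. With the genes split into equal parts by mean signal, the parts of Hhex and Rbp4 had medians of 0.17 and 0.21. In these parts 45.5% and 59.4% of genes were called higher. The part of Ghsr had a median of 0.05, with 31.4% called higher. Of the 3 markers, Ghsr alone kept its call under quantile normalization, and 0 kept it under cyclic loess normalization, where Rbp4 turned to -0.01. Limma called 0 of the 4 delta cell genes with arrays centred and 0 without arrays 1 and 5.

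Ins2, which encodes one of the mouse insulins, did not change past the threshold in any contrast. Its log2 signal was 12.83 and 12.89 on the CC scrambled arrays, 12.85 and 12.89 on the CC arrays labelled Hes3 siRNA, 12.89, 12.85, 12.89 and 12.92 on the DC scrambled arrays and 12.82, 12.83, 12.83 and 12.86 on the DC arrays labelled Hes3 siRNA. The groups overlapped in each contrast. DC against CC was 0.03 with scrambled siRNA (95% confidence interval -0.10 to 0.16; limma adjusted p = 0.875) and -0.03 with Hes3 siRNA (-0.17 to 0.10; limma adjusted p = 0.649), and the labels differed by 0.01 in CC (-0.14 to 0.16) and -0.05 in DC (-0.16 to 0.06). Without arrays 1 and 5 the last of these was -0.04 and DC against CC with Hes3 siRNA was -0.03. With Hes3 siRNA the value turned to 0.19 under cyclic loess normalization and then passed (limma adjusted p = 0.0287). The mouse has a near-identical copy, Ins1, which was not analysed here, and whether it adds to this signal was not tested.

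The small range of Ins2 needs its position on the scale. Over the 12 arrays it spanned 0.097 log2 units, a range at percentile 0.07 among genes, and it lay 1.42 to 1.58 below the brightest probe set of each array. Among the 32 genes as bright as Ins2 or brighter, the median range was 0.33, and 2 were called higher and 3 lower in DC against CC with scrambled siRNA, from -0.45 for the granin gene Chgb to 0.64 for the metallothionein gene Mt2. Differences were thus called at this brightness, but how far the Ins2 probe set itself was compressed near the top of the scale was not tested.

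Amylin, the peptide that beta cells release together with insulin and that forms islet amyloid in some species, is encoded by Iapp, whose probe set was the third brightest of all genes. Its log2 signal was 13.82 and 13.86 on the CC scrambled arrays, 13.82 and 13.81 on the CC arrays labelled Hes3 siRNA, 13.91, 13.77, 13.75 and 13.79 on DC scrambled arrays 1 to 4, and 13.52, 13.64, 13.61 and 13.76 on DC arrays 1, 2, 5 and 7 labelled Hes3 siRNA. Array 7 overlapped the DC scrambled arrays and the other three lay below them. The mean was 13.63 ± 0.097 against 13.80 ± 0.071 (SD, n = 4), a log2 fold change of -0.17 ± 0.0619 (SE; limma adjusted p = 0.0339). The brightest of 10 equal parts of the genes by signal, which holds Iapp, had a median of -0.15 in this contrast, with 42.2% of its genes called lower. Without arrays 1 and 5 the value was -0.11 (limma adjusted p = 0.294), and the call was also lost without array 1 (-0.14), 2 (-0.17) or 5 (-0.16), without DC scrambled array 1 (-0.14) or 4 (-0.18), and under cyclic loess normalization (-0.06). DC against CC was -0.04 with scrambled siRNA (95% confidence interval -0.20 to 0.12) and -0.18 with Hes3 siRNA (-0.34 to -0.02; limma adjusted p = 0.0663). The latter passed under quantile normalization (-0.20), with arrays centred (-0.29), with array weights (-0.17) and without array 7 (-0.22), and turned to 0.04 under cyclic loess normalization. Iapp lay only 0.44 to 0.80 below the top of each array, and the effect of saturation on its fold changes was not tested.

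Pancreatic polypeptide, a hormone of PP cells that acts on gut and appetite, had the smallest adjusted p of the 9 genes between the siRNA labels in DC. The Ppy log2 signal was 8.78 and 8.60 on the CC scrambled arrays, 8.77 and 8.76 on the CC arrays labelled Hes3 siRNA, 8.55, 8.75, 8.63 and 8.61 on DC scrambled arrays 1 to 4, and 9.08, 8.93, 9.10 and 8.95 on DC arrays 1, 2, 5 and 7 labelled Hes3 siRNA. All 4 of the latter lay above the other 8 arrays. Groups did not overlap between the labels in DC for 40.9% of all genes. The mean was 9.02 ± 0.089 against 8.64 ± 0.084 (SD, n = 4), a log2 fold change of 0.38 ± 0.0662 (SE; limma adjusted p = 0.00291), at rank 261 of 19938 genes from the highest. The part of the genes by signal that holds Ppy had a median of -0.06, with 13.7% of its genes called higher. Without arrays 1 and 5 the value was 0.30 and just missed the threshold (limma adjusted p = 0.0541), and leaving out any single array kept it between 0.35 and 0.42. In CC the labels differed by 0.08 ± 0.0937 (SE; limma adjusted p = 1). The difference between these siRNA contrasts, 0.31 ± 0.115 (SE), did not pass (limma adjusted p = 0.224). DC against CC was -0.05 with scrambled siRNA (limma adjusted p = 0.817) and 0.25 ± 0.0811 (SE; limma adjusted p = 0.0242) with Hes3 siRNA, a contrast that uses the same 4 DC arrays. That call was lost without CC array 1 (0.26) or 2 (0.25) labelled Hes3 siRNA, without DC array 5 (0.22), without arrays 1 and 5 together (0.18) and with arrays centred on their medians (0.14).

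Peptide YY, the gut hormone most like pancreatic polypeptide, is encoded next to Ppy on chromosome 11. Its signal did not change past the threshold in any contrast. The Pyy log2 signal ran from 8.20 to 8.27 on the CC arrays, from 8.10 to 8.37 on the DC scrambled arrays and from 8.27 to 8.46 on the DC arrays labelled Hes3 siRNA, with overlap between the DC groups. The label difference in DC was 0.09 (95% confidence interval -0.05 to 0.23; limma adjusted p = 0.256), or 0.05 without arrays 1 and 5 (0.642).

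Ghrelin, the peptide that stimulates appetite and growth hormone release, and urocortin 3, a beta cell peptide that stimulates somatostatin release and marks mature beta cells, were the dimmest hormones that were called. The Ghrl log2 signal was 8.62, 8.87, 8.71 and 8.55 on DC scrambled arrays 1 to 4 and 8.84, 8.83, 9.02 and 8.82 on DC arrays 1, 2, 5 and 7 labelled Hes3 siRNA, and the groups overlapped. The difference was 0.19 ± 0.0753 (SE; limma adjusted p = 0.0485). It was 0.14 without arrays 1 and 5 (limma adjusted p = 0.29), and the call was also lost without array 1 (0.20), 2 (0.21) or 5 (0.14) and without DC scrambled array 1 (0.17), 3 (0.20) or 4 (0.14). It missed the threshold under cyclic loess normalization (0.19), with arrays centred (0.12) and, at the same value, with dim genes left out or only the DC arrays fitted. The Ucn3 log2 signal was 7.33, 7.33, 7.24 and 7.18 on the DC scrambled arrays and 7.66, 7.43, 7.54 and 7.37 on the DC arrays labelled Hes3 siRNA, without overlap. The difference was 0.23 ± 0.0723 (SE; limma adjusted p = 0.0196), where the part of the genes by signal that holds Ucn3 had a median of 0.21 and 59.2% of its genes called higher. It was 0.13 without arrays 1 and 5 (limma adjusted p = 0.248), and the call was also lost without array 1 (0.18) or 5 (0.22), without DC scrambled array 4 (0.20), and under quantile normalization (0.13), cyclic loess normalization (0.06) and centring (0.16). On the CC arrays Ghrl ran from 8.52 to 8.69 and Ucn3 from 7.16 to 7.37. With Hes3 siRNA, DC against CC was 0.24 ± 0.0922 for Ghrl (SE; limma adjusted p = 0.0481) and 0.23 ± 0.0886 for Ucn3 (SE; limma adjusted p = 0.046), again over the same 4 DC arrays. Both were lost without either CC array labelled Hes3 siRNA (0.21 to 0.27 for Ghrl, 0.13 to 0.34 for Ucn3), without DC array 1 or 5 and without the pair (0.19 and 0.13). For Ghrl this was so without DC array 2 too (0.26), under cyclic loess normalization (0.23) and with arrays centred (0.13). For Ucn3 it was so under quantile (0.10) and cyclic loess normalization (0.05), with arrays centred (0.12) and with only these 6 arrays fitted.

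**Figure D3:**
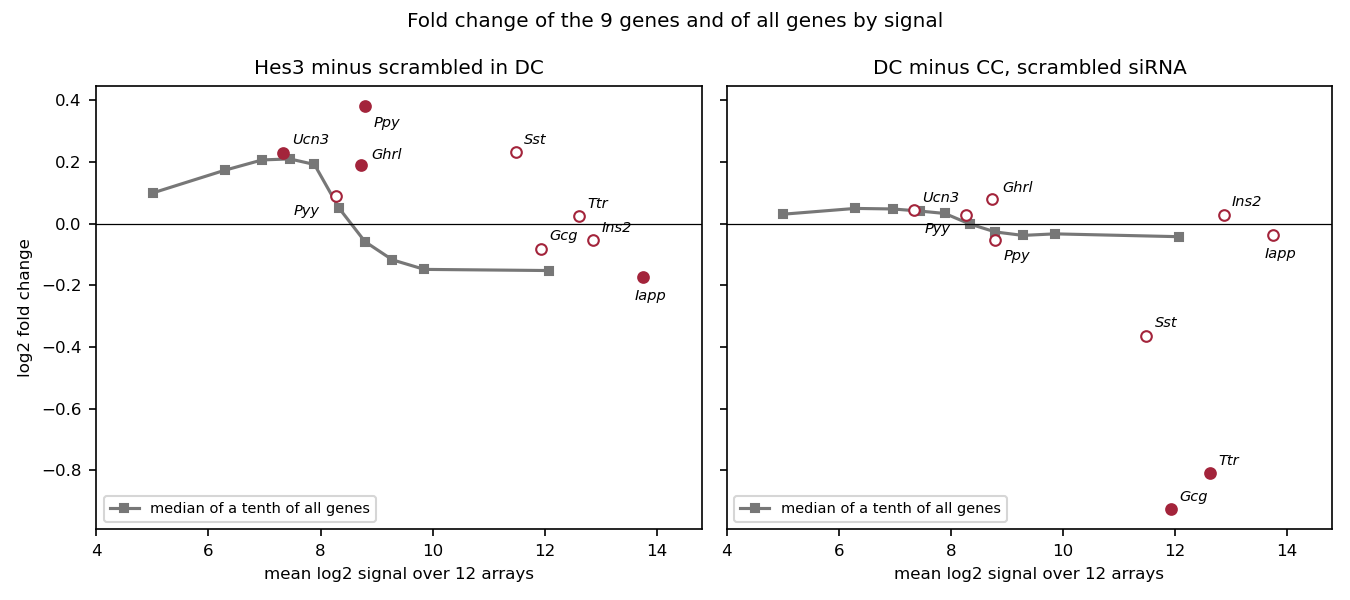
Log2 fold change against mean log2 signal over the 12 arrays for the 9 genes (circles, filled where called) and the median of all genes in 10 equal parts by signal (grey squares), for the siRNA labels in DC on the left and DC against CC with scrambled siRNA on the right. On the left, Ucn3 and Pyy lie near the grey line and Ppy, Ghrl and Sst above it, while Iapp lies past its end, close to the height of its last square. On the right, Gcg and Ttr lie far below the height of the line.

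In the comparison of labels in DC, dim genes as a whole were higher and bright genes lower in the arrays labelled Hes3 siRNA. The median ran from 0.21 in the fourth of the 10 parts by signal, counted from the dimmest, to -0.15 in the brightest. Set against the median of its own part, Ppy (0.38 against -0.06), Ghrl (0.19 against -0.06) and Sst (0.23 against -0.15) stood higher, while Ucn3 (0.23 against 0.21), Pyy (0.09 against 0.05) and Iapp (-0.17 against -0.15) lay close to it. Ttr (0.02), Ins2 (-0.05) and Gcg (-0.08), none of them called, also lay above the -0.15 of their part. With scrambled siRNA, DC against CC had part medians only from -0.04 to 0.05, beside -0.93 for Gcg and -0.81 for Ttr. In marker lists of non-islet cells, between the labels in DC, 6 of 7 measured acinar, 4 of 5 fibroblast, 3 of 5 duct and 4 of 6 macrophage and endothelial markers were called higher and 0 lower. Genes called higher made up 28.9% of all genes, and 45.5% to 59.4% in parts 2 to 5 of the 10, counted from the dimmest. The share was 31.4% in part 6, which holds Krt7, Sox9 and Cela2a, and 13.7% in part 7, which holds Col1a1 and Col1a2. Each of these markers was called higher. Under cyclic loess normalization, where 1694 of all genes were called higher, the counts called higher were 2, 4, 2 and 0, with 1 duct marker lower. Without arrays 1 and 5 limma called 0 in each of these lists, in a fit that called far fewer of all genes. The list medians there were 0.18 for acinar, 0.22 for fibroblast, 0.19 for duct and 0.12 for macrophage and endothelial markers, beside 0.26, 0.33, 0.27 and 0.21 with all arrays. The mean log2 signal of the acinar list ran from 7.18 to 7.39 on the DC arrays labelled Hes3 siRNA and from 6.98 to 7.09 on the DC scrambled arrays. For the fibroblast list the ranges were 8.15 to 8.40 and 7.90 to 7.99, for the duct list 7.30 to 7.42 and 7.10 to 7.24, and for the macrophage and endothelial list 7.11 to 7.22 and 6.95 to 7.03. These arrays carry no detection calls here, so no marker can be called absent, and the part of the other cell types or of the spread of signals in the hormone values was not tested.

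**Figure D4:**
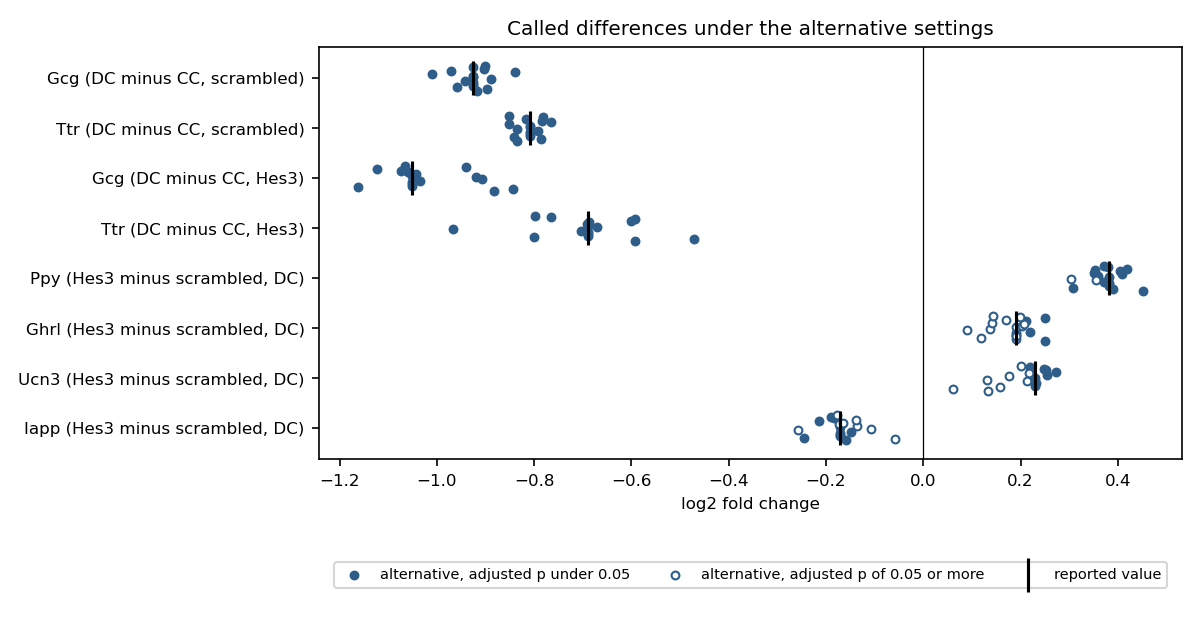
Log2 fold changes of 8 called differences as reported (black ticks) and under every alternative setting and left-out array (points, filled where the adjusted p is under 0.05). Gcg and Ttr stay below 0 and called in all 16 alternatives of each contrast, Ppy stays above 0.30 and is called in 16 of 18, and Ghrl, Ucn3 and Iapp keep their sign and are called in 6 of 18, 9 of 17 and 10 of 18.

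The order of the groups differed from gene to gene. Gcg and Ttr were highest in both CC groups and lowest in both DC groups, and neither pair differed past the threshold. Sst was also highest in both CC groups, followed by the DC arrays labelled Hes3 siRNA (11.51 ± 0.30, SD, n = 4) and DC scrambled (11.27 ± 0.13, SD, n = 4), which overlapped. Ppy, Pyy, Ghrl and Ucn3 were all highest in the DC arrays labelled Hes3 siRNA, with the other three group means from 8.64 to 8.76 for Ppy, 8.21 to 8.26 for Pyy, 8.61 to 8.69 for Ghrl and 7.23 to 7.27 for Ucn3. Iapp was lowest in that group. As descriptions over the same 12 arrays, Ppy went with Ghrl (Pearson r = 0.83) and Ucn3 (0.82) and against Iapp (-0.86) and Ins2 (-0.81), over arrays in which dim and bright probe sets moved apart.

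Genes with the most similar pattern over the 12 arrays were found for each called gene. For Gcg they were Apobec1 (r = 0.98), Rpa2 (0.98) and Cdipt (0.98), with DC against CC log2 fold changes with scrambled siRNA of -1.08, -0.22 and -0.58. For Ttr they were Tfdp1, Bcat1 and Herpud1 (0.97 each; -0.45, -0.71 and -0.38). Those of Ppy were Csf1r (r = 0.99), Tff1 (0.98) and Tmprss2 (0.98), with label differences in DC of 0.28, 0.42 and 0.32. Those of Ghrl were Spata45 (0.97), Timd4 (0.96) and Upp2 (0.95), those of Ucn3 were Dnajc22, Tas2r144 and Cmtm3 (0.97, 0.97 and 0.96), and those of Iapp were Zfp825, Stxbp4 and Stx18 (0.97 each). The correlations rest on 12 arrays that share the steps between groups.

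Among enzymes and transporters that mature these peptides, 8 of 9 listed genes were measured. In DC with scrambled siRNA 1 was called higher and 1 lower, beside 3.09% and 5.45% of all genes. The granule zinc transporter gene Slc30a8, which supplies the zinc that insulin crystals need, rose by 0.54 ± 0.0772 (log2, SE; limma adjusted p = 0.000313), and the amidating enzyme gene Pam, which acts on amylin and pancreatic polypeptide, changed by -0.32 ± 0.0736 (SE; limma adjusted p = 0.0105). With Hes3 siRNA 1 rose and 3 fell, where 21.2% of all genes were called higher and 18.8% lower. Slc30a8 rose by 0.47 and Pam fell by 0.38, together with Qpct (-0.63) and the carboxypeptidase gene Cpe (-0.20). Pam lost its call under quantile (-0.18, limma adjusted p = 0.0775) and cyclic loess normalization (-0.16, 0.108), as did Cpe (-0.09 and 0.02), so that 1 rose and 1 fell under each. With arrays centred 1 rose and 5 fell, and without arrays 1 and 5 the counts were 1 and 2, with Cpe at -0.15. Between the labels in DC, Mboat4, whose product adds the fatty acid to ghrelin, rose by 0.35 ± 0.077 (SE; limma adjusted p = 0.00484) beside Ghrl, and Qpct (-0.40), Slc30a8 (-0.19) and Cpe (-0.16) fell. Of all genes 28.9% were called higher and 18.3% lower in this contrast. There Slc30a8 and Cpe lost their calls under quantile (-0.07 for each) and cyclic loess normalization (-0.04 and -0.02), and limma called 0 of the 8 without arrays 1 and 5, with Mboat4 at 0.26. In CC limma called 0 of the 8 between the labels (1 at an unadjusted p under 0.05), with Mboat4 at 0.25 and Slc30a8 at -0.11.

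The receptors of these hormones were measured for all 19 listed genes. In DC against CC with scrambled siRNA 0 were called higher and 1 lower, the receptor partner gene Ramp2 (-0.35 ± 0.0918, SE; limma adjusted p = 0.0264), with a list median of 0.07 beside 0.02 for all genes. Of all genes 3.09% were called higher and 5.45% lower there. With Hes3 siRNA 6 of the receptor list were called higher and 1 lower, where 21.2% of all genes were called higher and 18.8% lower. Among them were the incretin receptor gene Gipr (0.50), Npy4r, which encodes the receptor for pancreatic polypeptide (0.43), Ramp3 (0.39) and Ramp2 (-0.41). The count called higher was 4 under quantile normalization, 3 under cyclic loess normalization, 3 with arrays centred and 2 without arrays 1 and 5, with 1 lower in each. Ramp3 lost its call under quantile (0.25, limma adjusted p = 0.0533) and cyclic loess normalization (0.21, 0.0726) and without this pair (0.27, 0.0606). Between the labels in DC 10 were called higher and 1 lower, beside 28.9% and 18.3% of all genes, with a median of 0.20 beside 0.06. Parts 2 to 5 of the 10 by signal, counted from the dimmest, had 45.5% to 59.4% called higher and medians from 0.17 to 0.21. The receptor list was not set against genes of its own signal. The smallest p in this contrast belonged to Ramp3 (0.34), the somatostatin receptor gene Sstr2 (0.30), Npy2r (0.29) and the glucagon receptor gene Gcgr (0.32). Under cyclic loess normalization 3 were called higher and 0 lower, and each of these 4 genes but Npy2r lost its call. Limma called 0 of the 19 without arrays 1 and 5, with a median of 0.13. In CC limma called 0 of 19 (0 at an unadjusted p under 0.05), with Gipr at -0.25 and Sstr2 at 0.17.

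Of 21 listed transcription factors of hormone genes 18 were measured. In DC against CC with scrambled siRNA 2 rose and 1 fell, beside 3.09% of all genes called higher and 5.45% lower. Isl1, a LIM homeodomain factor of all islet cells, rose by 0.59 ± 0.0987 (log2, SE; limma adjusted p = 0.00116), and Nkx6-1, which keeps beta cells from alpha cell fate, rose by 0.39 ± 0.102 (SE; limma adjusted p = 0.026). Glis3, an activator of insulin genes, changed by -0.38 ± 0.0736 (SE; limma adjusted p = 0.00374). With Hes3 siRNA 6 rose and 3 fell, beside 21.2% of all genes called higher and 18.8% lower. The smallest p belonged to Pax4 (0.40), Isl1 (0.42), Neurod1 (-0.44) and Glis3 (-0.26). Under quantile normalization 5 rose and 0 fell, with Neurod1 (-0.23, limma adjusted p = 0.0566) and Glis3 (-0.09, 0.417) no longer called. Under cyclic loess normalization 5 rose and 1 fell, with Glis3 no longer called (-0.12, 0.275). The counts were 2 and 3 with arrays centred, and 4 and 2 without arrays 1 and 5. Between the labels in DC 6 rose and 2 fell, beside 28.9% of all genes called higher and 18.3% lower. They were led by Neurod1 (-0.47), Irx2 (0.27), Irx1 (0.37) and Pou3f4 (0.22), with a list median of -0.01 beside 0.06 for all genes. With arrays centred 2 rose and 3 fell there, and Pou3f4 lost its call under each of the 3 scalings. With arrays 1 and 5 left out limma called 0 higher and 1 lower, Neurod1 (-0.34, adjusted p = 0.0491). Nkx6-1 in DC with scrambled siRNA lost its call with arrays centred (0.35, limma adjusted p = 0.0648). In CC limma called 0 of 18 (0 at an unadjusted p under 0.05), with Nkx2-2 at -0.22 and Pou3f4 at 0.13.

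Of 28 listed peptide genes of gut and nerve 26 were measured. In DC against CC with scrambled siRNA 0 rose and 3 fell: Nucb2, the precursor of nesfatin (-0.73 ± 0.123, SE; limma adjusted p = 0.00122), the secretin gene Sct (-0.53 ± 0.0963, SE; limma adjusted p = 0.0023) and Cartpt (-0.41 ± 0.0824, SE; limma adjusted p = 0.00478). Of all genes 3.09% were called higher and 5.45% lower. The list median was -0.02, beside 0.02 for all genes, and 5 fell under quantile and under cyclic loess normalization. With Hes3 siRNA 6 rose and 6 fell, among them the opioid precursor genes Penk (-1.10) and Pdyn (-0.40), Nucb2 (-0.91) and Ucn2 (0.43), beside 21.2% of all genes called higher and 18.8% lower. The counts were 2 and 5 under quantile normalization, 3 and 5 under cyclic loess normalization, 2 and 8 with arrays centred and 0 and 4 without arrays 1 and 5. Pdyn lost its call under quantile (-0.22, limma adjusted p = 0.0645) and cyclic loess normalization (-0.19, 0.0960), and Ucn2 without the pair (0.28, 0.0545). Between the labels in DC 10 rose and 2 fell, beside 28.9% of all genes called higher and 18.3% lower. They were led by Penk (-0.61), the somatostatin relative Cort (0.38), Ucn2 (0.37) and Vip (0.26). Like that of the receptors, this list was not set against genes of its own signal. Under cyclic loess normalization 3 rose and 1 fell, and Vip lost its call (0.13). Limma called 0 of the 26 without arrays 1 and 5, with Penk at -0.43 (adjusted p = 0.0507). In CC limma called 0 of 26 (1 at an unadjusted p under 0.05), with Pdyn at 0.24 and Ucn at 0.19. The difference of the siRNA contrasts was called by limma for 0 genes of these 4 lists (3 receptors, 1 maturation gene, 3 transcription factors and 2 peptides had an unadjusted p under 0.05), with the smallest p at Npy4r (0.37) and Gipr (0.36), Qpct (-0.40) and Cpe (-0.16), Neurod1 (-0.54) and Hhex (0.28), and Pdyn (-0.48) and Penk (-0.64).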

How the data were processed

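Expression was measured on 12 Affymetrix arrays of MIN6 cells, from 250 ng of total RNA each. Per the labels, no unit, summarization or normalization method is given; the deposited table by the authors holds log2 values, a scale read from the values (3.94 to 14.4), and the number of columns left out was 0. No earlier step is named in the sources used here.

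The table held 35556 probe sets. The platform annotation of 2016 gave 21789 of them 1 symbol, 1621 several and 12146 none. A gene was read from its brightest single-symbol probe set by mean signal, giving 19938 genes, and dim genes were kept; each of the 9 genes had 1 such probe set. Groups came from the sample titles. Limma 3.58.1 in R 4.3.3 (lmFit, eBayes) was fitted to all genes with 1 mean per group, 8 residual and 7.62 prior degrees of freedom, 5 contrasts and a Benjamini-Hochberg adjusted p of 0.05 over all genes; the script was tested on simulated data. Percentiles place a probe set in the signal range and do not rank genes by RNA level.

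The genes, gene lists and alternatives were chosen with earlier results of these data known. Named were the 9 genes, the 3 genes best correlated with each called one, and up to 4 called members of each list (or the 2 of smallest p). Marker genes came from fixed lists, and Chgb and Mt2 were named after their values were seen. Promoter windows came from RefSeq (GRCm38.p6). Alternatives were quantile and cyclic loess normalization, centring, dropping genes below percentile 40 of mean signal, trend and robust eBayes, only the arrays compared, the mean of probe sets, array weights, a replicate block, leaving out arrays and, chosen after seeing the data, a fold of at least 1.5 and, for the gene lists, the scalings and the omission of both arrays that stood apart.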

Additional observations from a re-analysis of the deposited data

Results flagged for a closer look

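Of 18 groups of 4 DC arrays tested for an array far from the others, 2 held one, where chance gives about 1 in 20 groups. DC array 5 labelled Hes3 siRNA gave the highest Ghrl signal of its group, 9.02 on the log2 scale, with the other three from 8.82 to 8.84. DC array 7 labelled Hes3 siRNA gave the highest Ins2 signal of its group, 12.86, with the other three from 12.82 to 12.83.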

How the results depend on the processing

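Gcg and Ttr kept their direction and their calls in DC against CC in all 16 alternatives for each siRNA, with log2 fold changes from -1.16 to -0.84 for Gcg and from -0.97 to -0.47 for Ttr. No member was called between the labels in CC or in the difference of the siRNA contrasts under any alternative run. Of the 9 genes, 4 were called between the labels in DC. This count became 2 under cyclic loess normalization, 2 with arrays centred, 2 with dim genes left out, 0 with the replicate block, 0 without arrays 1 and 5 and 0 at a fold of at least 1.5, and leaving out single arrays gave 1 to 4. For DC against CC with Hes3 siRNA the count of 5 became 3 with arrays centred, 3 with the replicate block, 2 without arrays 1 and 5 and 2 at a fold of at least 1.5, and 2 to 6 without single arrays. The genes called were Gcg, Ttr and Iapp with arrays centred and Gcg, Ttr and Sst with the block. Ppy, Ghrl and Ucn3 thus lost their calls in both. All genes called numbered 9408 between the labels in DC, but 5736 under quantile normalization, 4297 under cyclic loess, 5436 with dim genes left out, 620 with the replicate block and 331 without arrays 1 and 5, and when a single array was dropped 5754 (DC scrambled array 1), 5881 and 6064 (arrays 5 and 1 labelled Hes3 siRNA). In DC against CC with Hes3 siRNA they numbered 7986, but 5025 under quantile normalization, 5131 under cyclic loess, 4051 with the replicate block, 3631 without arrays 1 and 5, and 3410 and 2357 without CC arrays 1 and 2 labelled Hes3 siRNA. With scrambled siRNA they numbered 1702, but 1054 with array weights, 804 with the replicate block and 742 without CC scrambled array 2, an array whose absence also gave 2056 calls in place of 0 in the difference of the siRNA contrasts. Of these calls 61.3% were higher between the labels in DC, but 39.4% under cyclic loess and 36.7% with arrays centred; in DC against CC with Hes3 siRNA 53.0% were, but 40.7% under quantile normalization, 36.5% under cyclic loess and 17.3% with arrays centred. Centring moved the median of all genes in the latter by -0.11. The labels do not state that replicate numbers pair the arrays, and deviations of same-numbered arrays correlated from -0.44 to 0.54, so the block was not used further. Under it Sst in DC against CC with Hes3 siRNA was -0.43 and called (limma adjusted p = 0.0378), and its other alternatives, from -0.31 to 0.0047, were not called. At a fold of at least 1.5 the counts of all genes were 196, 1103 and 347 in these contrasts. Since only 331 of all genes were called between the labels in DC without arrays 1 and 5, a count of 0 in a gene list there was near the share of all genes.

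Among the single genes, these values changed sign and, with the exception of Ins2 in DC against CC with Hes3 siRNA under cyclic loess, none of them was past the threshold; the cause was not tested. Under quantile normalization they were Ins2 0.016 and Gcg 0.049 (labels in DC), Ucn3 -0.0026 (DC against CC, scrambled), Ins2 0.053 and Sst 0.0047 (DC against CC, Hes3), and Ins2 0.015 and Gcg 0.036 (difference of contrasts). Under cyclic loess they were Ins2 -0.054 (labels in CC), Ins2 0.081 and Gcg 0.062 (labels in DC), Ucn3 -0.0012 (scrambled), Ins2 0.19, Iapp 0.041, Sst 0.0027 and Pyy -0.0088 (Hes3), and Ins2 0.13, Iapp 0.065, Gcg 0.054 and Pyy -0.025 (difference). With arrays centred they were Ttr -0.049 (labels in DC), Ins2 -0.0048 and Pyy -0.0048 (scrambled), Pyy -0.034 (Hes3) and Pyy -0.029 (difference). With the replicate block they were Gcg 0.026, Ttr -0.23 and Sst -0.013 (labels in DC), and Ttr -0.13 and Sst -0.078 (difference). With dim genes left out Ucn3 had no value. Array weights gave Ttr -0.0070 (labels in DC). Without arrays 1 and 5 Gcg was 0.050 (labels in DC) and 0.0050 (difference).

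Without single arrays the label differences in CC ran from -0.017 to 0.040 for Ins2, -0.041 to 0.13 for Gcg, -0.031 to 0.16 for Sst, -0.015 to 0.17 for Ppy, -0.058 to 0.12 for Ghrl and -0.063 to 0.14 for Ucn3. In DC they ran from -0.15 to 0.029 for Gcg and -0.086 to 0.12 for Ttr. In DC against CC with scrambled siRNA they ran from -0.14 to 0.038 for Ppy, -0.014 to 0.076 for Pyy and -0.0066 to 0.17 for Ghrl.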
